A study of Mus musculus with 8 samples.

Results

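Summits of open chromatin that lie in masked repeat sequence were examined. ATAC-seq reads DNA that the Tn5 transposase can reach, and a summit is the highest point of a called peak. A summit was included when it lay on chromosomes 1 to 19, more than 1 kb from every TSS of a curated RefSeq mRNA, and when more than 50% of the bases within 500 bp of it were soft-masked in the mm10 genome. Soft-masking is the lower-case marking of interspersed repeats and low-complexity sequence. Of 32173 summits in all, 31729 lay on these chromosomes, 21458 of these were distal, that is more than 1 kb from a TSS, and 2607 met the rule. The other 18851 distal summits served for comparison. The rule used only position and masking, not scores or base composition. Masking marks repeats, so the rule in part sets copy number and shared sequence, and masked genome windows are given beside these where they were measured.

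The nuclei came from brown adipose tissue (BAT) of 2 WT and 2 Dot1l-BKO mice, all 12 weeks old and kept for 4 hr at 4°C. Dot1l encodes the methyltransferase of histone H3 lysine 79. Dot1l-BKO mice carried floxed Dot1l alleles and Cre driven by the Ucp1 promoter, and WT mice were littermates with the floxed alleles but without Cre. Cre acts in Ucp1+ cells, whereas BAT nuclei also come from vessels, immune cells and precursors. The deposited list gives 1 position and 1 score per summit for the 4 libraries together, where the score is the −log10 of the q-value from MACS2. Hence no value of either genotype, no replicate error and no read depth could be given, and no test between WT and Dot1l-BKO was possible. The description of the list sets WT against Dot1l-BKO, and whether the Dot1l-BKO libraries were the control in peak calling is not given in the sources used here. The methods speak of peaks found by MACS2 in each sample and joined into a union set, but not of how this list was made. If Dot1l-BKO libraries were its control, a score would be an excess of WT over Dot1l-BKO reads and not openness in all 4 libraries, and the list cannot tell these apart. Intervals are 95% Wilson intervals, which cover counting error only and treat as independent summits that in part share sequence.

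Interspersed repeats are copies left by mobile elements, of which L1 is the most abundant self-copying family in mammals. A full-length mouse L1 element begins with a promoter built of tandem units called monomers. After it come a pair of reading frames, and the second encodes the endonuclease and reverse transcriptase that copy the element. Most L1 copies are truncated at their 5′ end and have lost both promoter and coding capacity. Other masked sequence includes short tandem repeats and multicopy genes such as the 5S rRNA array. A read from a sequence with many identical copies cannot be placed at 1 of them, and how such reads were handled is not given in the sources used here.

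Much of the masked set consisted of a few tandem units. When the 100 bp on each side of every distal summit were compared with each other by blastn (at least 80% identity over at least 100 bp), 2041 of the 2607 summits fell into 110 groups that share sequence. The 3 largest groups held 1088, 342 and 137 summits, which is 60.1% of the set. Their sequence repeated itself most often every 208, 212 and 206 bp, and they are called here by these lengths. To show what these summits sit on, 1 unit of each group is given from mm10, on the strand of the reading frame described below. It was taken from a summit close to the commonest position in its group, with the most copies in the genome and the short patterns that most of the group held. The 11 capitals mark the commonest place of the summits.
208-bp unit, chr3:53135744-53135951, minus strand: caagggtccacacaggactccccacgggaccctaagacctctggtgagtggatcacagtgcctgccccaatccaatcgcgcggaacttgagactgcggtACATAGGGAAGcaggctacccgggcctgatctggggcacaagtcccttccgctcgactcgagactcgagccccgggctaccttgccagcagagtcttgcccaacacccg
212-bp unit, chr3:73864433-73864644, plus strand: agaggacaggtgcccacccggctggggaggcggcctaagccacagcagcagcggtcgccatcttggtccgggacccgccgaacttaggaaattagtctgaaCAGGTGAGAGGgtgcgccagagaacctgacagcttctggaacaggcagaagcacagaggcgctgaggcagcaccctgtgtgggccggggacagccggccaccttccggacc
206-bp unit, chr1:47629190-47629395, plus strand: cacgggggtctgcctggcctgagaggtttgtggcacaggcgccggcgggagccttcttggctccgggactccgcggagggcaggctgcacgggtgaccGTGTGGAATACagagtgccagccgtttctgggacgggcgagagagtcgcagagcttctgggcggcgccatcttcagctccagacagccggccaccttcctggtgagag

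All 3 units were rich in G and C and held many CpG dinucleotides. The median GC content within 100 bp of the summits was 62.7% in the 208-bp group, 65.2% in the 212-bp group and 66.7% in the 206-bp group, with a median of 12, 12 and 15 CpG. The 3 groups lay on 19 chromosomes each, and 77.8% of their summits were intergenic. None of the other 18851 distal summits shared sequence with these 3 groups at the same limits, which the masking rule in part sets. With a smaller group of the masked set, 109 of them did so.

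Summits were less often masked than the genome around them. The masked share was 12.1% of distal summits (11.7% to 12.6%) and 21.5% of 2352195 consecutive 1-kb windows of the same chromosomes more than 1 kb from a TSS. Distance from genes turned this order around. Between 1 and 5 kb from a TSS, 2.43% of summits were masked beside 14.5% of windows, and from 5 to 50 kb these shares were 8.30% and 20.2%. From 50 to 200 kb they were alike, at 19.9% of summits and 19.8% of windows. Farther out the summits exceeded the windows, with 54.0% beside 23.5% from 200 to 500 kb and 81.8% (77.5% to 85.4%) beside 30.4% beyond 500 kb. Of the 373 summits more than 500 kb from any mRNA TSS, 305 were thus in masked sequence.

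**Figure D1:**
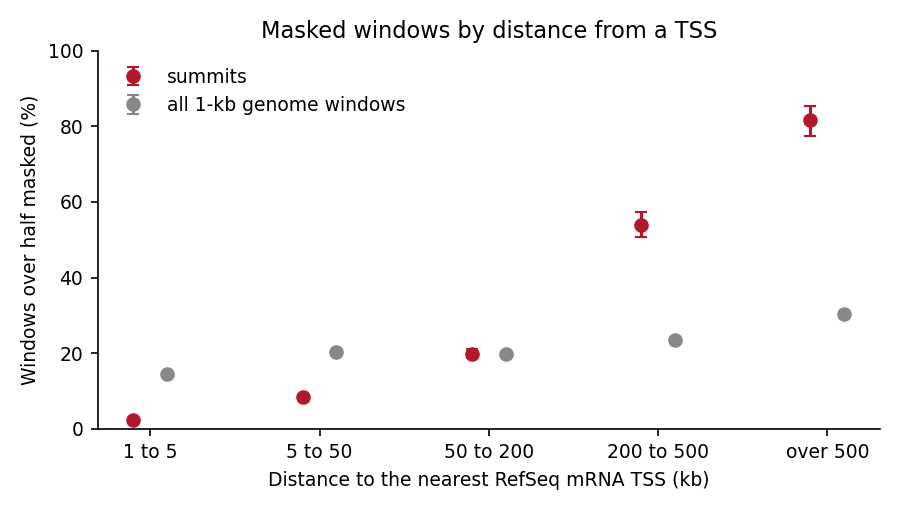
Share of 1-kb windows that are more than 50% masked (vertical axis, percent) by distance to the nearest mRNA TSS (horizontal axis, kb), for distal summits (red) and for all genome windows (grey), with 95% Wilson intervals as bars. Summits rise from 2.43% to 81.8%, and windows from 14.5% to 30.4%, with the order reversing beyond 200 kb.

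The median distance to an mRNA TSS was 76173 bp in the masked set and 13605 bp in the other distal summits. By position, 1862 of the 2607 summits (71.4%) were intergenic, 28.4% intronic and 5 exonic (0.192%), whereas the other distal summits were 37.3% intergenic, 50.9% intronic and 11.8% exonic. A start of a transcript other than a curated mRNA lay within 1 kb of 3.61% of the masked set and of 10.2% of the others. No tRNA gene and no miRNA gene was found within 500 bp of a masked summit (0 of 2607 for each, which allows a share of up to 0.115% by a limit of 3 counts and 0.147% by the Wilson interval), whereas 81 and 82 of the other distal summits had one. An lncRNA gene held 7.10% of the masked set and 11.4% of the others. A pseudogene held 42 masked summits (1.61%, 1.19% to 2.17%) and 121 of the others (0.642%, 0.538% to 0.766%), the reverse order. Another summit lay within 1 kb of 12.5% of the masked set and 21.5% of the others.

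Chromosomes differed in how much of their distal chromatin was masked. The share was lowest on chromosome 11 (83 of 1758 distal summits, 4.72%) and chromosome 19 (44 of 884, 4.98%), and highest on chromosome 3 (209 of 846, 24.7%) and chromosome 14 (121 of 613, 19.7%). Set against the masked windows that each chromosome offers, the range was narrower, from 3.95 summits per 1000 masked windows on chromosome 11 to 8.42 on chromosome 8. Chromosome 8 holds the 5S rRNA array and a further local group, both described below.

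The masked windows around these summits were not like masked sequence in general. Their median GC content within 100 bp was 62.7% (quartiles 55.2% and 63.7%), beside 40.8% in all masked windows and 53.7% in the other distal summits. The median number of CpG was 10 in the masked set, 3 in the other distal summits and 1 in masked windows. The base under the summit was itself masked in 93.5% of the set and, at their centre, in 82% of masked windows. Where the summit base was masked, the unbroken masked run that held it had a median length of 6466 bp (quartiles 699 and 7007 bp), beside 538 bp (172 and 2370 bp) in masked windows whose centre was masked. The rule itself limits both measures in the other distal summits, so these are not compared. Tandem repetition, with at least 70% identity over 150 bp at a distance of 60 to 400 bp, was seen in 2270 of the 2607 summits (87.1%), 7.90% of the other distal summits and 5.70% of masked windows. The summits that met the rule were thus more often in tandem and GC-rich sequence, and in longer masked runs, than masked windows were.

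Few of these summits lay in sequence that was unique at 50 bp throughout, though over 50% held some unique 50-mer. Of the 50-mers within 100 bp of a summit, at least 90% occurred once in the genome for 196 of the 2607 masked summits (7.52%), for 90.8% of the other distal summits and for 42.5% of 4931 masked windows sampled. In 1262 masked summits (48.4%) no 50-mer was unique, against 2.73% of the other distal summits and 17.5% of masked windows. The median summit of the set lay among 50-mers with 51 copies. Reads were paired, and a mate in unique sequence can place a read from a repeat, which these shares of single 50-mers leave out.

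The scores of the masked set were slightly lower than those of the other distal summits, and its upper tail was thinner. The median score was 3.91 (quartiles 2.58 and 6.09) beside 4.16 (2.87 and 7.05), and 5.0 over all 32173 summits. A score of at least 10 was reached by 202 masked summits (7.75%) and 15.3% of the others. The masked share of distal summits was 21.1% for scores under 2, 11.8% from 2 to 5, 13.4% from 5 to 10, 7.67% from 10 to 20 and 3.68% from 20 to 50. At scores of 100 or more, 5 of 30 distal summits were masked, with an interval from 7.34% to 33.6%. The score differed little with uniqueness, with medians of 3.91 in the 1262 summits without a unique 50-mer, 4.06 in those with some and 3.62 in the 196 with at least 90%.

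**Figure D2:**
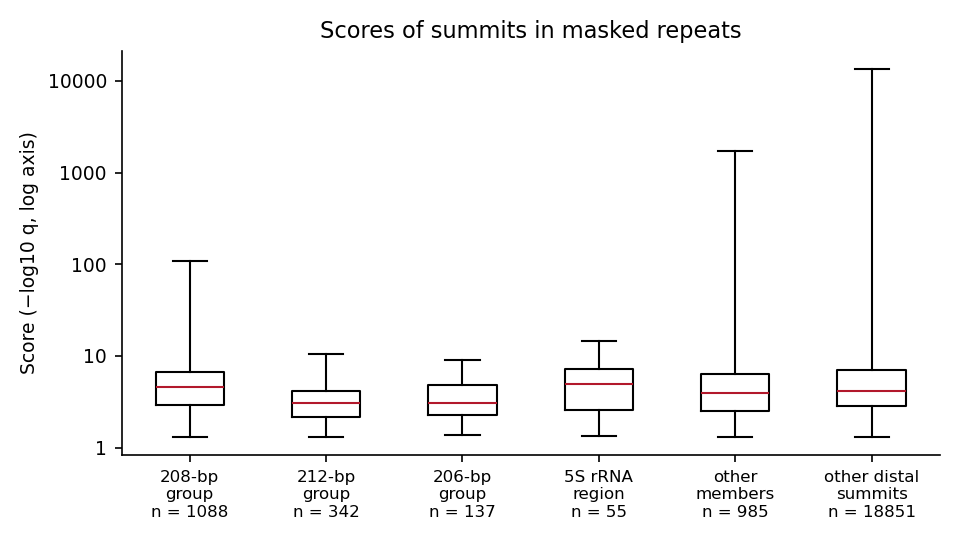
Scores (−log10 q, vertical log axis) in the 3 largest groups, the 5S rRNA region, all other masked summits and the other distal summits, with n under each box. Boxes span the quartiles, the red line is the median and whiskers reach the lowest and highest score. The 208-bp group has a median of 4.53 and the 212-bp and 206-bp groups of 3.05 and 3.06.

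Within the 3 largest groups the 208-bp group scored highest. Its median was 4.53 (quartiles 2.92 and 6.70, highest 108), beside 3.05 in the 212-bp group (highest 10.5) and 3.06 in the 206-bp group (highest 9.0). Each summit has only 1 score, so the spread between mice behind this order is unknown. If Dot1l-BKO libraries were the control, the order would be one of WT excess. The unit length was 208 bp in 768 of the 1088 summits of the largest group and 201 bp in 206 others, and was 212 bp in 301 of 342 summits of the next. The 206-bp group was less uniform, with units of 206 bp in 49 summits, 205 bp in 45 and 204 bp in 38. A 50-mer near a summit had a median of 538 genome copies in the 208-bp group and 991 in the 212-bp group, and no unique 50-mer was found in 600 of 1088 and 254 of 342 summits.

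The repeated units were placed before long reading frames. On chromosomes 1 to 19, 4849 reading frames of at least 1000 codons were found, and their commonest length was 1281 codons, reached by 2779. Of these, 2755 (99.1%) encoded the amino acids FADD, a run at the active site of the L1 reverse transcriptase. A shorter frame preceded them, most often of 371 codons (1574 frames) or 357 codons (580 frames). No repeat annotation was used, so that these are described by their frames and not by a named subfamily. A 1281-codon frame lay within 8 kb of 807 of the 2607 masked summits (31%), of 5.25% of masked windows and of 18 of the 18851 other distal summits (0.0955%). It lay near 42.8% of the 208-bp group, 74.0% of the 212-bp group and 63.5% of the 206-bp group. Outside these groups it lay near 1 of the 1040 masked summits. Since masking defines the set, the rule in part sets the low share in the other distal summits.

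The summits had a narrow place with respect to the frame. Between 1 and 3 kb before its first base were 792 summits, of which 788 belonged to the masked set, which is 30.2% of that set, and 2 of the 792 lay before 2 frames each. Their median distance from the frame was 1881 bp (quartiles 1717 and 2066 bp). In the 3 largest groups together, summits on a masked base lay in masked runs with a median of 6833 bp. The rule thus in part sets how many summits before the frames belonged to the masked set. From 1 kb before the frame to 4 kb after its first base, which takes in the frame of 3.843 kb, there was no summit at all among the 2755 frames. Beyond 3 kb before the frame, no 1-kb bin held more than 16 summits.

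**Figure D3:**
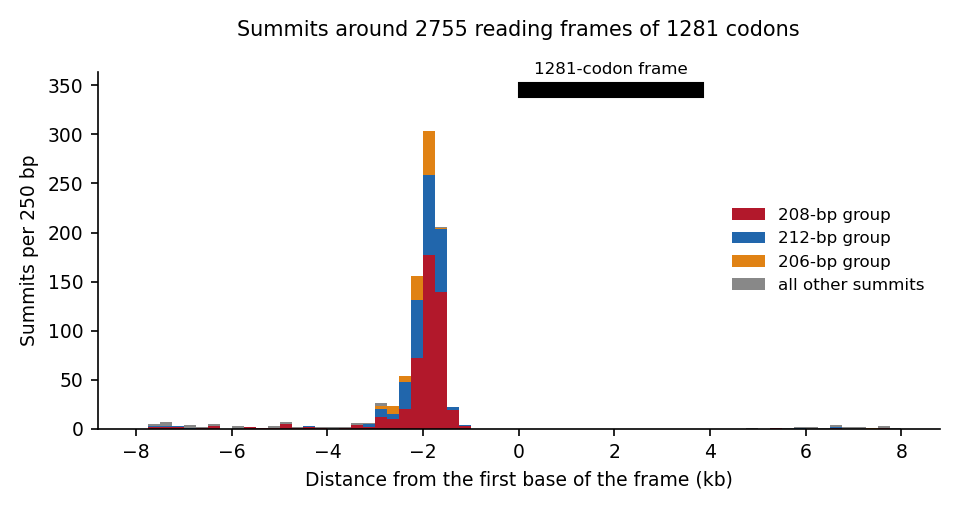
Summits per 250 bp (vertical axis) by distance in kb from the first base of 2755 reading frames of 1281 codons (horizontal axis, negative values lie before the frame), stacked by group. The black bar marks the frame. Of the summits shown, 535 lie from 2 to 1 kb before the frame and 259 from 3 to 2 kb before it, whereas the frame itself holds 0. The 2 summits before 2 frames each are drawn once for each frame.

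Only part of these elements had a summit. A summit lay 1 to 3 kb before 754 of the 2755 frames (27.4%, 25.7% to 29.1%). Where that stretch held tandem units of 180 to 240 bp, 749 of 2276 frames (32.9%) had a summit, and where it did not, 5 of 479 (1.04%, 0.447% to 2.42%) had one. The share differed with the unit. It was 376 of 633 (59.4%, 55.5% to 63.2%) for 208 bp, 228 of 1091 (20.9%, 18.6% to 23.4%) for 212 bp and 40 of 93 (43.0%, 33.4% to 53.2%) for 206 bp. Among the frames after tandem units, it also differed with the preceding frame, at 316 of 537 (58.8%) for 357 codons and 277 of 1317 (21.0%) for 371 codons.

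Frames after less unique sequence had a summit more often. The share was 55.5% where at most 10% of the 50-mers before the frame were unique, 47.7% from 10% to 20%, 48.5% from 20% to 40%, 20.9% from 40% to 60% and 12.2% above 60%. The order of the units was the same on both sides of 40%. With at most 40% unique 50-mers, 237 of 290 frames after 208-bp units (81.7%) and 164 of 497 after 212-bp units (33.0%) had a summit. With more, the shares were 139 of 343 (40.5%) and 64 of 594 (10.8%). The part of read placement in these shares was not tested.

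**Figure D4:**
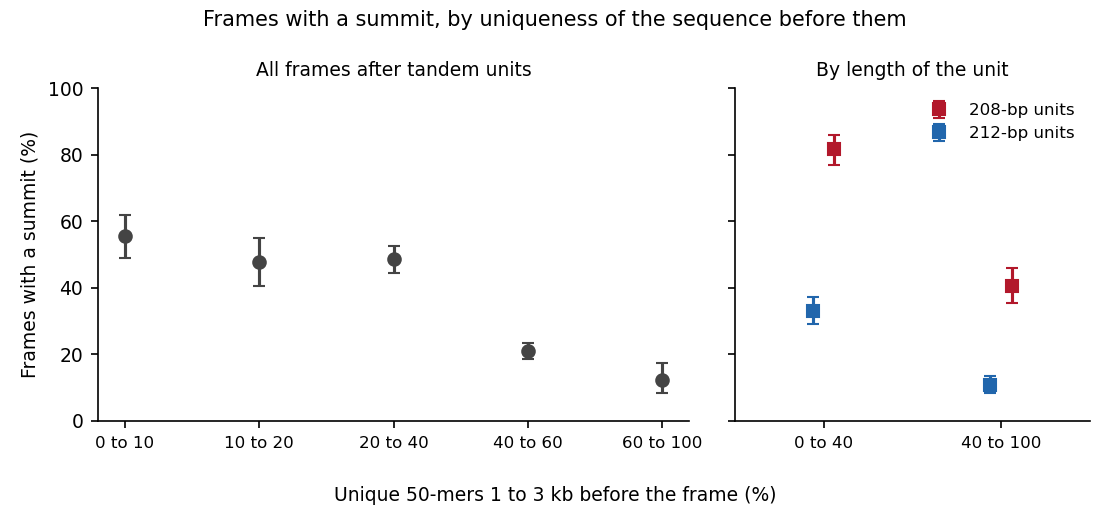
Percent of frames with a summit 1 to 3 kb before them (vertical axis) by the percent of unique 50-mers in that stretch (horizontal axis). The left plot shows all 2276 frames after tandem units, the right plot those after units of 208 bp (red) and 212 bp (blue), and bars are 95% Wilson intervals. The share falls from 55.5% to 12.2% on the left, and 208-bp units lie above 212-bp units in both ranges on the right.

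The genome was also searched for the sequence at the summits, regardless of any frame. A representative window of 100 bp on each side of a summit was, for each group, searched at 80% identity over at least 150 bp, and matches within 1 kb of each other were merged into loci. The 208-bp window matched 3789 loci, of which 1010 (26.7%) had a summit. The 212-bp window matched 3660 loci, of which 335 (9.15%) had one, and the 206-bp window 1652 loci, of which 133 (8.05%) had one. The 208-bp unit again had the highest share, whereas the 206-bp unit, which exceeded the 212-bp unit by frame, did not do so by locus. The count by frame took in only units of exactly 206 bp, and that by locus all matches, so these are not the same sets. In each of these 3 groups most loci had no summit in the list.

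Within the unit, the summits had preferred positions. In the direction of the frame, 229 of 1088 summits of the 208-bp group (21.0%) lay within 5 bp of 1 position of the unit, where an even spread would give 5.29%. A further 127 lay within 5 bp of another, 118 bp farther on. In the 212-bp group 150 of 342 summits (43.9%, even spread 5.19%) lay within 5 bp of the commonest position, and in the 206-bp group 35 of 137 (25.5%, even spread 5.34%). A second position held a further 55 summits of the 212-bp group (16.1%), 142 bp farther on. In the 206-bp group it held 17 (12.4%), 109 bp farther on. All these positions were chosen from the same summits, so these shares are a description. Summits of 1 group also share sequence, and the part of that in the preference was not tested.

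**Figure D5:**
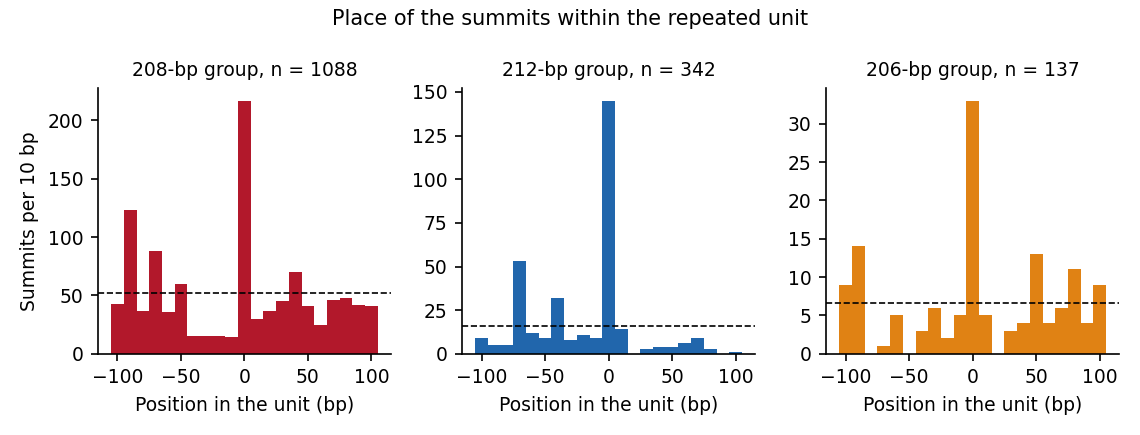
Summits per 10 bp (vertical axes) by position in the repeated unit (horizontal axes, bp, 0 is the commonest position, positive values run toward the reading frame) in the 3 largest groups. The dashed line is an even spread. In each group the bar at 0 is the highest, with 21.0%, 43.9% and 25.5% of summits within 5 bp of it.

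Short sequence patterns differed between the units. Motifs were searched as letters on both strands within 100 bp. The C/EBP pattern TTGCNNAA, recognised by a family that includes the adipogenic factors C/EBPα and C/EBPβ, was present at 870 masked summits (33.4%), beside 10.2% of the other distal summits and 9.86% of masked windows. Of these 870 summits, 833 were in the 208-bp group, none in the other 2 large groups, and 37 of 1040 outside them (3.56%). In the printed 208-bp unit the pattern occupies bases 195 to 202. The pattern AAGATGGC, the core of sites for the zinc finger factor YY1, was added after the units had been read. It was present at 306 of 342 summits of the 212-bp group, 130 of 137 of the 206-bp group and 0 of 1088 of the 208-bp group, beside 1.03% of the other distal summits and 3.96% of masked windows. In the printed units it lies on the reverse strand, at bases 57 to 64 of the 212-bp unit and 164 to 171 of the 206-bp unit.

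Most patterns of factors with known sites in open chromatin were rarer in the masked set than in the other distal summits. The CTCF pattern, bound by the factor that anchors chromatin loops, was found at 1 masked summit (0.0384%) and at 232 others (1.23%), and in 0.0654% of masked windows. The AP-1 pattern TGANTCA was found at 1.19% and 8.66%, the EBF pattern, of the family of the brown fat factor Ebf2, at 0.345% and 1.69%, and the E-box CACGTG at 1.96% and 4.11%. The NFI pattern was at 0 masked summits and 13 others. Of the 17 patterns other than AAGATGGC, those for C/EBP and for a longer YY1 site (1 and 6 summits) had no lower share in the masked set. The other 15 did, though the intervals overlap for NFI, NRF1, ERR and NF-Y. In masked windows AP-1 was at 3.84%, EBF at 0.170% and the E-box at 1.63%. Against masked windows the masked set was thus lower for AP-1, but not for EBF or the E-box. Outside the 3 largest groups, AP-1 was at 2.40% of masked summits, EBF at 0.481% and the E-box at 2.31%. These shares were also below those of the other distal summits. A match is a match of letters and not a bound site.

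Outside the 3 largest groups, 1040 masked summits remained, with a median GC content of 53.2%, a median of 1 CpG and 37 C/EBP patterns. The 5S rRNA array was the clearest local cluster. The annotation places 48 rRNA genes of 119 to 121 bp, all on the minus strand, between chr8:123538784 and 123622046, in an array that supplies the RNA polymerase III transcript of the large ribosomal subunit. All 55 summits in this region or within 5 kb of it belonged to the masked set, and none had a unique 50-mer within 100 bp (median of 42 copies). Their scores ran from 1.34 to 14.4 with a median of 4.95. A masked summit lay within 1 kb of 41 of the 48 genes, 14 of the 55 summits were inside a gene and 36 within 500 bp of a gene start. The stretch of 50 bp on each side of the highest of these summits, which is the capital, lies at chr8:123606545-123606645 and is given on the plus strand as an example of the array.
5S rRNA region: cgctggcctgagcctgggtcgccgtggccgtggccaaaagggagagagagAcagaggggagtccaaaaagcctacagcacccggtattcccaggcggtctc

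The next groups were smaller. One held 50 summits, 23 on chromosome 5 and 27 on chromosome 7, with a median GC content of 65.7%. Its sequence matched 696 loci of the genome, of which 89 (12.8%) had a summit. Its highest member scored 10.1, at chr5:134939744 in an intron 7190 bp from the TSS of Cldn4, which encodes a tight junction protein. The next held 41 summits in a single region, between chr8:19760029 and 20706620, with units of 156 bp, and its highest member scored 9.75. Its sequence had 275 matches in the genome, which merged into 16 loci, of which 12 (75%) had a summit. Neighbouring copies merge into 1 locus, so this share cannot be set against those of dispersed groups. Their sequences at the highest members, 50 bp on each side of the summit in capitals, plus strand, show repeats unlike those of the large groups.
Group of 50, chr5:134939694-134939794: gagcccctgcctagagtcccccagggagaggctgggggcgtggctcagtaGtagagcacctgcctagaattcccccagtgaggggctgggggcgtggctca
Group of 41, chr8:20706570-20706670: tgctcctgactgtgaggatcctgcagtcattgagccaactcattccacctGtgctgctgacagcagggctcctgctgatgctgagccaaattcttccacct

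Perfect short tandem repeats of at least 20 bp, with units of up to 6 bp, lay within 100 bp of 116 masked summits (4.45%), 0.859% of the other distal summits and 6.94% of masked windows. The commonest unit was ACAGC, at 26 masked summits and 1 other distal summit, with scores from 1.34 to 246. It was followed by AGCAGG at 17 and 0, AC at 16 and 29, and ATCC at 12 and 0. ACAGC was picked as the commonest unit of the set, and simple repeats are themselves masked. The rule and this choice thus in part set its near absence from the other distal summits. AC, an abundant repeat in mammals, was found in both sets. Single units were not counted in masked windows. Among the longest repeats were AGAGC over the whole stretch searched near Dap and AGAGGC over 99 bp near Ccdc113, with scores of 2.15 and 7.47. The longest perfect repeat at the highest ACAGC summit is in capitals, plus strand.
ACAGC summit, chr6:29748235-29748335: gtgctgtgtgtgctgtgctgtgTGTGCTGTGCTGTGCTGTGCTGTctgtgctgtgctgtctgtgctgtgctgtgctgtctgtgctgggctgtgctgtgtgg

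The 10 highest scores came from several kinds of sequence. The highest, 1710 at chr6:9890113, lay 940094 bp from the TSS of Nxph1, and 310 bp of its window matched the mitochondrial genome at 95.5% identity. The next, with a score of 293 at 131146 bp from the TSS of Bambi, matched it over 279 bp at 88.9%. BAT is rich in mitochondrial DNA, and the part of mitochondrial reads in these scores was not tested. Next came a summit with an ACAGC repeat in an intron 12788 bp from the TSS of Smo, the Hedgehog signal transducer, with a score of 246 at chr6:29748285. A further ACAGC summit at chr17:13552661 scored 157. The highest of the 208-bp group scored 108 at chr14:81045822, 1045520 bp from the TSS of Olfm4. A pair of summits in 1 intron of Tmem267, upstream of the chemokine gene Ccl28, scored 85.9 at chr13:119602120 and 61.5 at chr13:119596951. The last 3 scored 56.2 near Zfp825, 54.0 in an intron near Tusc3 and 47.7 near Vmn2r129.

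The 5 highest scores among the 196 summits in unique sequence were 293, 85.9, 47.7, 22.4 and 20.9. The last 2 lay 67170 bp from the TSS of Scarb1, which encodes a lipoprotein receptor, and in an intron 90972 bp from the TSS of Abcd2, a peroxisomal fatty acid transporter. At both, the summit base was not masked. The Ccl28 summit is printed on the plus strand with the summit in capitals, as the highest in unique sequence without a mitochondrial match. It passed the limit narrowly, with 90.8% of its 50-mers unique, and its most frequent 50-mer had 31 copies. Its window also repeated itself in tandem at 89.3% identity, and it shared sequence with at least 1 other masked summit.
Unique summit, chr13:119602070-119602170: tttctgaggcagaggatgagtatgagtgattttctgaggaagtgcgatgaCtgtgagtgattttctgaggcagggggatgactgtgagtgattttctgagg

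Masked summits were also counted by gene. Over all 20021 genes on chromosomes 1 to 19, 1963 (9.80%) had a masked summit within 50 kb of a TSS or in the gene body. Of 25 thermogenic and brown fat genes 2 had one, of 20 adipocyte genes 4, of 7 muscle genes 1, and of 7 endothelial and 7 macrophage and leukocyte genes 0. Of 5 housekeeping genes, Tbp, Actb, Ppia and Gapdh had one, with scores of 10.1, 6.78, 5.72 and 3.06. These counts are too small to be read against the background.

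The thermogenic gene with the highest masked summit was Ucp1, which encodes the uncoupling protein of brown fat. That summit scored 11.6 and lay at chr8:83300104, 9756 bp downstream of the TSS and past the annotated end of the gene at 83298456. Its 50-mers had a median of 1 copy, and it belonged to no group. No tandem repetition was found in its window. The sequence around it is given with the summit in capitals.
Ucp1 summit, chr8:83300054-83300154: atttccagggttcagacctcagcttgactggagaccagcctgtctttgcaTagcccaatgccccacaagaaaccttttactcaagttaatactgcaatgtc
The other was Zc3h10, which encodes a DNA-binding partner of Dot1l in brown fat, with a score of 8.65 at 44988 bp from its TSS. Among adipocyte genes were Plin2, which coats lipid droplets (6.02), the triglyceride lipase gene Pnpla2 (2.92), the lipoprotein lipase gene Lpl (2.53) and the fatty acid transporter gene Cd36 (2.18). The muscle gene was Ckm, the muscle creatine kinase, with a score of 9.78.

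The genes with most masked summits in their body were Flg2 with 10, Snx9 with 7, and Arl15, Itgbl1, Ptprt and Tmem267 with 5 each. Flg2 encodes a filaggrin-type skin protein and Snx9 a sorting nexin of endocytosis. In Flg2 the highest score was 7.92, at 10590 bp from the TSS, and the gene held no other distal summit. In Snx9 it was 23.3, beside 4 other distal summits. The best summits in Itgbl1 and Ptprt, with scores of 8.73 and 4.83, belonged to the 208-bp group. The 5 summits of Tmem267 included the Ccl28 pair.

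At the limit of the rule, the 3 summits just inside had 50.05% of their window masked, with scores of 1.71 near Vmn1r2, 1.54 in an intron near Nadk and 1.41 in an intron near Nedd4. The 3 just outside had 49.95% masked, with scores of 2.53 near Lfng, 11 near Pdia4 and 3.05 near Eid3.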

How the data were processed

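ATAC-seq of BAT from 4 libraries (2 WT, 2 Dot1l-BKO) was used, and the RNA-seq libraries were not analysed here. Per the submitters' processing notes and methods, the authors aligned paired 50-bp reads to mm10 with BWA and called peaks with MACS2 2.1.1 (q-value cutoff 0.05, fold enrichment cutoff 2.0). The deposited value is the −log10 q-value of each summit, in 1 list for the 4 libraries. Whether Dot1l-BKO libraries served as control is not given in the sources used here, nor are the transposase shift and the handling of multi-mapped and mitochondrial reads. Depth is unknown. There were 0 columns of other samples.

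Positions were compared with the GRCm38 RefSeq annotation and the soft-masked genome, whose coordinates are those of mm10. Each 50-mer was counted on both strands of chromosomes 1 to 19, X, Y and the mitochondrial genome, in every 100th window for the genome. Groups joined summits by single linkage of blastn 2.17.0 matches (e-value at most 1e-10). Gene lists were fixed by symbol. Scripts ran in Python 3.11.15 with numba 0.67.0, networkx 3.6.1, scipy 1.17.1, matplotlib 3.10.9, pandas 2.3.3 and numpy 2.4.6. The tandem search was tested on simulated sequence. The 50-mer counts were compared with a plain search of the genome, at a few summits only. No test was run, since summits are not replicates.

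The regions named were the 10 highest scores, the 5 highest in unique sequence, the 3 nearest on each side of the masking limit, the highest of the 5 largest groups and the 3 longest simple repeats, of which 1 is not reported here. The genes named were those nearest to them, the 5 with most masked summits (tied genes included) and genes of the lists. Members and lists were chosen with earlier results of these data known. The groups, tandem units, 1281-codon frames, AAGATGGC pattern, 5S region and commonest simple repeats were singled out after their values were seen. Alternatives changed the score minimum, the window, the masking and distance limits, the transcripts and the k-mer length.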

Additional observations from a re-analysis of the deposited data

How the results depend on the processing

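No paired analysis was possible because the deposited list holds 1 score per summit for the 4 libraries together, which also prevents leaving a replicate out. With scores of at least 5 and at least 10, the set fell from 2607 to 942 and 202 summits, its share of distal summits to 11% and 6.54%, and its median score rose to 7.03 and 13.2. The share was 9.04% with more than 80% of the window masked, 15.3% beyond 5 kb from a TSS and 12.9% with all annotated transcripts. The share with unique 50-mers was 6.05% with scores of at least 5, 1.19% with more than 80% masked, 5.69% beyond 5 kb, 5.18% with 36-mers and 5.75% where every 50-mer had to be unique. The share on a masked base was 89.6% with scores of at least 10, 94.5% with 250 bp on each side, 99.1% with more than 80% masked and 94.7% beyond 5 kb. The CTCF share was 0 with scores of at least 10, more than 80% masked, beyond 5 kb, or within 50 bp, each from 1 summit. Alternatives chosen after seeing the data gave the 3 largest groups 51.5% of the set with scores of at least 10, 73.4% with more than 80% masked and 2.55% in unique sequence only. Tandem units were then found in 89% with scores of at least 5, 93.2% with more than 80% masked and 31.6% in unique sequence only. Depth, which is unknown here, limits any statement on repeats without a summit.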

Other observations

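On the sex chromosomes, which the rule leaves out, masked windows made up most of the distal summits. On chromosome X, 238 of 282 distal summits were masked (84.4%), beside 39.4% of 161439 windows there. Their median GC content of 63.2% and median score of 3.79 were near those of chromosomes 1 to 19, and 178 of them had no unique 50-mer. Chromosome X held only 44 distal summits outside masked windows, whereas each of chromosomes 1 to 19 held from 492 to 1675. On chromosome Y, 48 of 58 distal summits were masked, beside 97.1% of windows.

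Within 1 kb of an mRNA TSS, 20 of 10271 summits lay in masked windows (0.195%). The highest of these scored 36.9, 957 bp upstream of the TSS of Mpp7, and the next 5.93, 862 bp upstream of Ptpn1, which encodes a phosphatase of insulin signalling. Both are named here after their values were seen.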
